A study of Mus musculus with 6 samples.

Results

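The guanine nucleotide exchange factors that switch on the small GTPase RAP1 were examined in the lungs of tumour-bearing mice. The 8 genes (Rapgef1, Rapgef2, Rapgef3, Rapgef4, Rapgef5, Rapgef6, Rasgrp2 and Rasgrp3) were picked by symbol from a matrix of 56980 mouse genes, and all 8 passed the filter of a 6-library mean of 1 TPM or more, which left 15650 genes to test (TPM, transcripts per 1000000, is a level per length of transcript). RNA was sequenced from 6 lung libraries of NSG mice, an immunodeficient strain without mature T, B and natural killer cells, taken 5 weeks after human cells had been placed in the fourth mammary fat pad. Ctrl lungs (n = 3) came from mice given MDA-MB-231, a human line from a triple-negative breast cancer, and DPP3_KO lungs (n = 3) from mice given MDA-MB-231 cells with DPP3, the gene of dipeptidyl peptidase 3, knocked out. The mice themselves carried no deletion that separated the groups. The sources do not say how old the hosts were or whether the knockout line was a clone. Whether each replicate was a separate mouse is not given in the sources used here, so the p-values cover no more than the spread among these 6 libraries. The title of the series ties tumour DPP3 to RAP1 signalling and lung metastasis, and the comparison asks how the genes that load RAP1 with GTP stood in the host lung in its absence.

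RAP1 cycles between a GDP-bound, inactive form and a GTP-bound form that activates integrins and tightens junctions between endothelial and epithelial cells. Each exchange factor shares a catalytic domain of the CDC25 type and answers to a different upstream signal. Rapgef3 (EPAC1) and Rapgef4 (EPAC2) are opened by cyclic AMP, Rapgef1 is brought to receptors and focal adhesions by CRK adaptors, and Rapgef2 and Rapgef6 (the PDZ-GEFs) sit at junctions through a PDZ domain. Rapgef5 (MR-GEF) resembles the EPAC proteins in its catalytic part but is not opened by cyclic AMP, Rasgrp2 (CalDAG-GEFI) answers to calcium and drives integrin activation in platelets and neutrophils, and Rasgrp3 binds diacylglycerol and acts on both RAS and RAP1 in B cells and endothelium.

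Promoter sequences are shown for both EPAC genes, which parted from each other in these lungs, and for Rasgrp3 and Rapgef5, the genes with the next largest changes. They were read from RefSeq on GRCm38.p6, an earlier build than the GRCm39 of the expression matrix, and run 5′ to 3′ on the gene's strand from 250 bases before an annotated start to 50 bases after it. Capitals mark GGAAGT (an ETS core), GGGCGG (a GC box) and TGACGT (6 letters of the cyclic AMP response element), each on either strand.
Rapgef4, chr2:71980965-71981264, plus strand: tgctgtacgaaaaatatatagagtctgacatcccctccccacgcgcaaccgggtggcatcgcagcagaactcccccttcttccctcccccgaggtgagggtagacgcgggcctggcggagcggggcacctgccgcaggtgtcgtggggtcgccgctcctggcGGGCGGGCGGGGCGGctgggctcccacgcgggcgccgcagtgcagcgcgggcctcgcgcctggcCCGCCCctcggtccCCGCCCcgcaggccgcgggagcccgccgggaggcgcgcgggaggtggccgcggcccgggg
Rapgef3, chr15:97767617-97767916, minus strand: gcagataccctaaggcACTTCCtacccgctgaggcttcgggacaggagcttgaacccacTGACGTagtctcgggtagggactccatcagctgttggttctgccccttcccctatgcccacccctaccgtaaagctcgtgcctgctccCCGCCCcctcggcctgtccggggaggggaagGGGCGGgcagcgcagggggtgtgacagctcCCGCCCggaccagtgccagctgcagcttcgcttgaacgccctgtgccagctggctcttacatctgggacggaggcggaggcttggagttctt
Rasgrp3, the first of 2 listed, chr17:75435655-75435954, plus strand: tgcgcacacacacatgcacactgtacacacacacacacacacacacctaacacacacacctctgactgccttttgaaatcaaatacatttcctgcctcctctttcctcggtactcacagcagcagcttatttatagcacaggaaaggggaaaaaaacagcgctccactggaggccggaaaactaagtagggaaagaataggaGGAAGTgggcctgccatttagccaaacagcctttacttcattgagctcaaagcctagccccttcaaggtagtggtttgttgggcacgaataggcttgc
Rapgef5, the first of 2 listed, chr12:117516276-117516575, plus strand: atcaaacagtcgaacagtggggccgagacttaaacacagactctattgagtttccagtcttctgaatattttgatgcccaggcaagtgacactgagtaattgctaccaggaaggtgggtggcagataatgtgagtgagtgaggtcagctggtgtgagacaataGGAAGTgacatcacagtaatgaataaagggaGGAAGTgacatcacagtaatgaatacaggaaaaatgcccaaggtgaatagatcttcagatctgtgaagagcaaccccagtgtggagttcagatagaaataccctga

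The Rapgef4 window was 76.7% G and C and held 5 GC boxes, of which the first 3 overlap, and the Rapgef3 window was 65.0% G and C with 3 GC boxes, 1 ETS core and 1 TGACGT. The first Rasgrp3 and Rapgef5 windows were poorer in G and C, at 48.3% and 44.0% against a median of 52.7% over all 32851 RefSeq windows of this length, and held ETS cores at 48 bases (Rasgrp3) and at 87 and 56 bases (Rapgef5) before the start. The second Rapgef5 window, not shown, was 75.0% G and C with 5 GC boxes and no ETS core, and the second Rasgrp3 window was 52.7% G and C and held none of these motifs. Among the 12 windows listed for the 8 genes, 4 held GGAAGT and 7 held GGGCGG, against 23.8% and 35.7% of all windows. TGACGT was in the windows of Rapgef3 and Rapgef6 only, against 7.51% of all windows, and the full palindrome TGACGTCA was in 0 of 12, against 1.79% of all. These matches describe letters in a short window and say nothing of binding.

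In the whole comparison the deposited values of most genes were lower in DPP3_KO. Scgb1a1, the club cell secretoglobin, took 7.16% to 10.1% of all TPM in Ctrl libraries and 21.7% to 28.7% in DPP3_KO libraries, and the median log2 change over all tested genes was -0.60. With TPM rescaled without Scgb1a1, the log2 change of Rapgef1 went from -0.88 to -0.58 and that of Rapgef3 from -0.70 to -0.40. The part of Scgb1a1 in the general shift was not tested. Median-of-ratios scaling, which divides each library by the typical ratio of its genes to their geometric mean, brought the median over all tested genes to -0.03. The change of each of the 8 genes over all 6 libraries is therefore given below as deposited and after that scaling. Values are on the log2(TPM + 1) scale as DPP3_KO minus Ctrl. Changes of other genes are as deposited unless scaling is named. The lung label matched its markers, with 10 alveolar type 2 cell genes summing to 23490 to 58599 TPM. Neutrophil markers set libraries apart within both groups, since 10 genes summed to 4119 and 7273 TPM in Ctrl replicates 1 and 2 and 1746 in DPP3_KO replicate 1, but to 52800 in Ctrl replicate 3 and 36641 and 15229 in DPP3_KO replicates 2 and 3. Most of these sums was S100a8 and S100a9. By mean log2 level DPP3_KO replicate 3 (7.78) was also above Ctrl replicate 2 (7.08). Csf3r (71.9 against 199 TPM) and Cxcr2 (57.7 against 104 TPM) put DPP3_KO replicate 3 below Ctrl replicate 2.

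The family as a whole stood lower in DPP3_KO lungs as deposited. Summed over the 8 genes, the level was 345, 464 and 432 TPM in Ctrl and 177, 192 and 198 TPM in DPP3_KO, so the groups did not overlap (exact permutation p = 0.1, two-sided, the smallest that 3 samples against 3 allow). After median-of-ratios scaling the sums were 277, 344 and 366 in Ctrl and 221, 213 and 284 in DPP3_KO, and the groups overlapped (exact permutation p = 0.2). Of the 8 genes, 7 fell over all genes tested (limma, Benjamini-Hochberg adjusted p between 0.0145 and 0.0288), in a comparison in which 34.0% of all genes were called lower and 1.38% higher. In limma 0 of the 8 were called higher, and 0 had an unadjusted p under 0.05 in that direction. Every DPP3_KO library lay below every Ctrl library for 8 of 8 genes, as for 51.1% of all genes. After median-of-ratios scaling 1 of 8, Rapgef4, was called lower against 0.882% of all genes (1.90% higher). The groups did not overlap for 6 of 8, against 15.4% of all genes, and 4 of 8 had an unadjusted p under 0.05 (limma). The share of all genes at an unadjusted p under 0.05 was not counted, so such counts here and below have no background rate. With each library's trend over gene length removed as well, Rapgef4 was again the 1 of 8 called lower, against 0.581% of all genes (1.19% higher). The median change of the 8 was -1.26 on the deposited values and -0.68 on the scaled ones. Leaving out Ctrl replicate 1 or Ctrl replicate 2 left 0 of 8 called as deposited (limma adjusted p from 0.0583 and 0.0752 upward), with 8 and 7 still at an unadjusted p under 0.05; the same fits called 18 and 71 of all 15650 genes lower. In bulk tissue fewer cells of a type and less RNA per cell cannot be told apart.

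**Figure D1:**
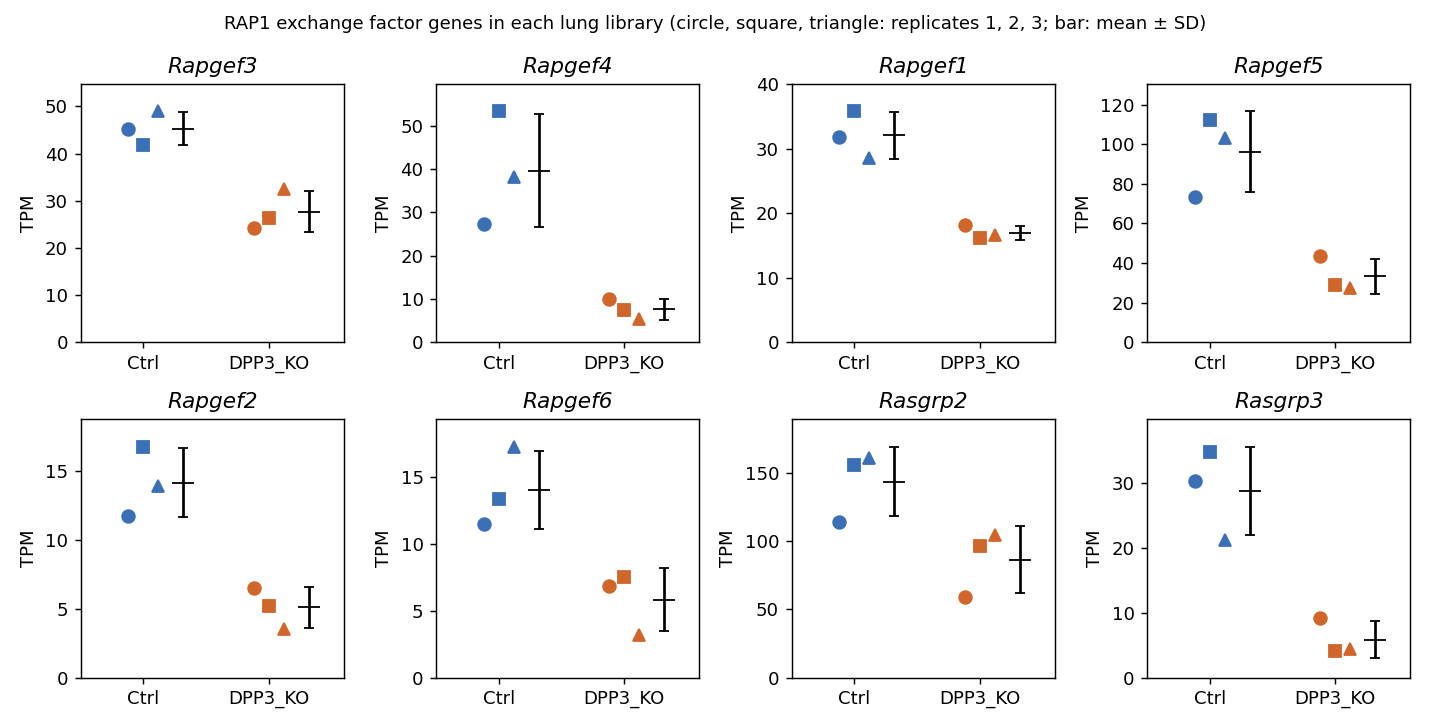
TPM of each RAP1 exchange factor gene (vertical axis, from 0) in each lung library, Ctrl in blue and DPP3_KO in orange, with symbols for replicates 1, 2 and 3 and a bar for mean ± SD (n = 3). In every panel the 3 DPP3_KO libraries lie below the 3 Ctrl libraries, and the ratio of the group means is largest for Rapgef4 (5.20) and Rasgrp3 (4.90).

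The EPAC genes, the branch that reads cyclic AMP, changed by different amounts. Rapgef4 (ENSMUSG00000049044, chromosome 2) stood at 27.4, 53.3 and 38.3 TPM in Ctrl and at 10.1, 7.56 and 5.27 TPM in DPP3_KO. All 3 DPP3_KO libraries were below the lowest Ctrl library, and the Ctrl mean was 5.20 times the DPP3_KO mean. Its change was -2.22 ± 0.31 (SE; limma adjusted p = 0.0145) as deposited, lower than in all but 0.927% of tested genes, and -1.61 ± 0.27 (adjusted p = 0.0381) after median-of-ratios scaling. The scaled call was kept without DPP3_KO replicate 1 and lost without any other single library. Rapgef3 (ENSMUSG00000022469, chromosome 15) stood at 45.2, 41.8 and 48.9 TPM in Ctrl and at 24.2, 26.4 and 32.5 TPM in DPP3_KO, which also did not overlap. Its change of -0.70 ± 0.18 (limma adjusted p = 0.0270) was close to the median of all genes, and after scaling it was -0.06 ± 0.23 (adjusted p = 0.908), with overlapping groups and DPP3_KO replicate 3 the highest library.

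In Ctrl lungs both EPAC genes had similar levels, and in DPP3_KO lungs Rapgef4 was the lower of the pair in each library. The ratio of Rapgef4 to Rapgef3 TPM, which no scaling of a whole library can alter, was 0.606, 1.28 and 0.782 in Ctrl and 0.416, 0.287 and 0.162 in DPP3_KO. On the log2(TPM + 1) scale the difference between them moved by -1.53, from -0.24 ± 0.53 to -1.76 ± 0.62 (SD, n = 3 each), without overlap (exact permutation p = 0.1; 0.3 adjusted over the 3 pairs of related genes compared). In a split by neutrophil sum made after the values were seen, the shift was -1.01 within the 3 libraries with the lower sums, which hold 1 DPP3_KO library, and -1.70 within the 3 with the higher sums, which hold 1 Ctrl library, so neither value can be tested.

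**Figure D2:**
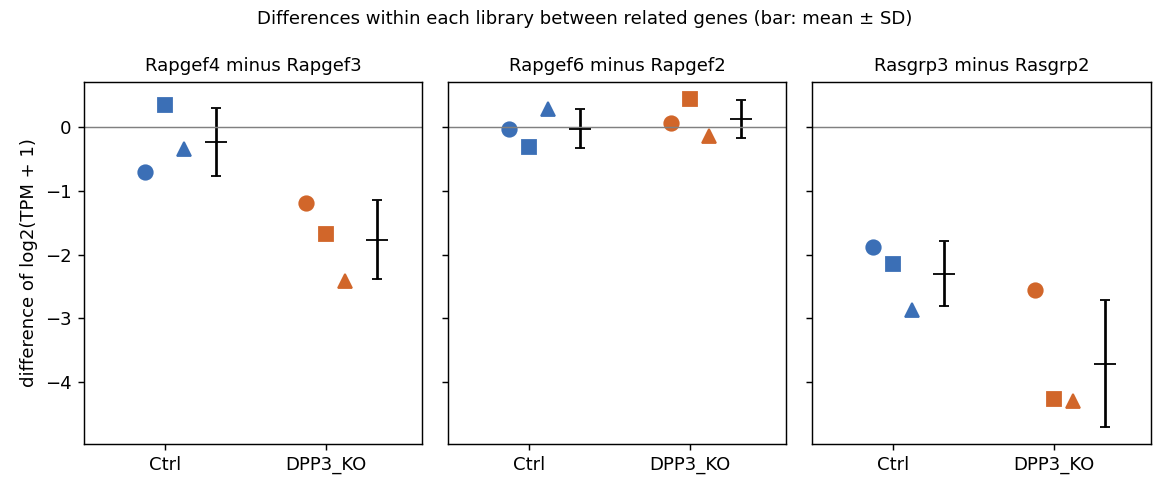
Difference of log2(TPM + 1) within each library (vertical axis) for Rapgef4 minus Rapgef3, Rapgef6 minus Rapgef2 and Rasgrp3 minus Rasgrp2, by group, with mean ± SD (n = 3). The EPAC pair separates the groups, the PDZ-GEF pair lies around 0 in both, and in the RasGRP pair DPP3_KO replicate 1, at -2.55, lies within the Ctrl range of -2.86 to -1.88.

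Rapgef5 (ENSMUSG00000041992, chromosome 12), the relative of the EPAC genes, had the second highest mean of the family in both groups. Its levels were 73.2, 112 and 103 TPM in Ctrl and 43.5, 28.7 and 27.6 TPM in DPP3_KO, where replicate 1 was the highest. The change was -1.51 ± 0.25 (limma adjusted p = 0.0152) as deposited and -0.86 ± 0.25 (adjusted p = 0.116) after scaling, when the groups still did not overlap.

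Rapgef1 (ENSMUSG00000039844, chromosome 2), the factor recruited by CRK adaptors, varied little within groups. It stood at 31.8, 35.8 and 28.5 TPM in Ctrl and 18.1, 16.1 and 16.6 TPM in DPP3_KO, a change of -0.88 ± 0.17 (limma adjusted p = 0.0171). After scaling the change was -0.25 ± 0.16 (adjusted p = 0.409), and with the trend of each library with gene length also removed it was 0.02. The lengths listed for the 8 genes run from 2219 bases for Rasgrp2 to 6964 for Rapgef2, and under that correction the change of Rasgrp2 was -0.16.

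The PDZ-GEF genes were the least abundant members in Ctrl and changed by like amounts. Rapgef2 (ENSMUSG00000062232, chromosome 3) stood at 11.8, 16.8 and 13.9 TPM in Ctrl and 6.49, 5.23 and 3.57 TPM in DPP3_KO (change -1.33 ± 0.25, limma adjusted p = 0.0164). Rapgef6 (ENSMUSG00000037533, chromosome 11) stood at 11.5, 13.3 and 17.2 TPM in Ctrl and 6.82, 7.51 and 3.16 TPM in DPP3_KO (change -1.19 ± 0.31, limma adjusted p = 0.0288). DPP3_KO replicate 3 was the lowest library for both. After scaling they stood at -0.75 (adjusted p = 0.102) and -0.61 (adjusted p = 0.248) in limma. The difference Rapgef6 minus Rapgef2 moved by 0.14 on the log2 scale, with overlapping groups (exact permutation p = 0.6), and turned slightly negative without Ctrl replicate 2 or DPP3_KO replicate 2.

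The RasGRP genes held the highest level and one of the largest changes of the family. Rasgrp2 (ENSMUSG00000032946, chromosome 19) was the most abundant member in every library, with 114, 156 and 161 TPM in Ctrl and 58.9, 96.4 and 105 TPM in DPP3_KO. The groups did not overlap, but the change of -0.75 ± 0.26 did not pass (limma adjusted p = 0.0601), and after scaling it was -0.10 ± 0.29 (adjusted p = 0.874) with overlapping groups. Rasgrp3 (ENSMUSG00000071042, chromosome 17) stood at 30.2, 34.7 and 21.3 TPM in Ctrl and 9.20, 4.04 and 4.36 TPM in DPP3_KO, a Ctrl mean 4.90 times that of DPP3_KO. Its change was -2.16 ± 0.32 (limma adjusted p = 0.0145) as deposited and -1.56 ± 0.32 (adjusted p = 0.0560) after scaling, without overlap on either scale. The difference Rasgrp3 minus Rasgrp2 moved by -1.41, with DPP3_KO replicate 1 inside the Ctrl range (exact permutation p = 0.2; 0.3 adjusted over the 3 pairs).

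**Figure D3:**
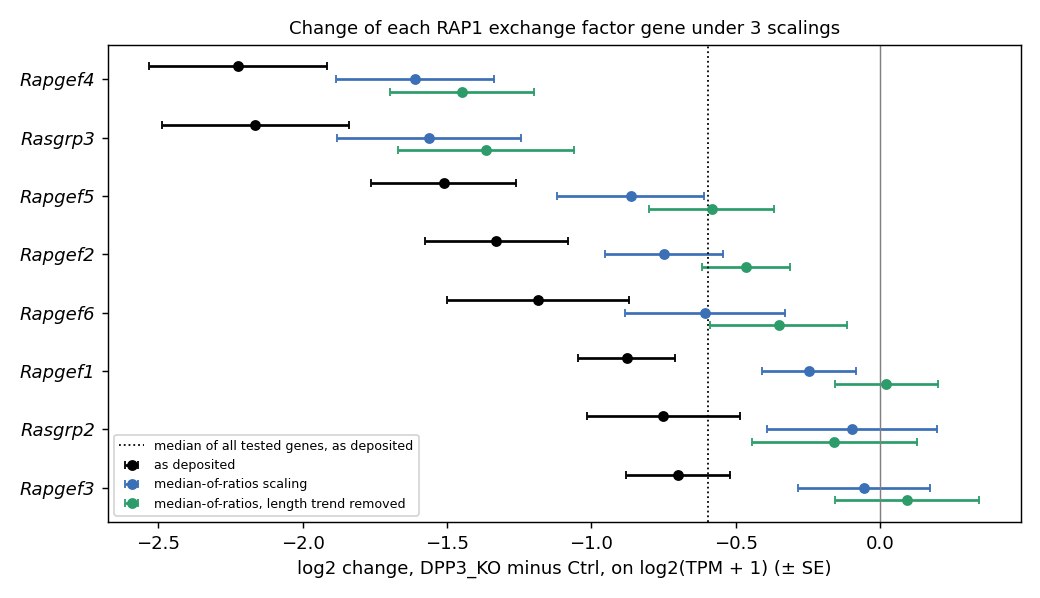
Log2 change of each gene, DPP3_KO minus Ctrl, on the log2(TPM + 1) scale (horizontal axis, points ± SE from limma) as deposited, scaled by the median of ratios, and scaled with the length trend also taken out; the dotted line is the median of all tested genes as deposited. Rapgef4 and Rasgrp3 stay at -1.37 or lower in all 3, whereas Rapgef3, Rasgrp2 and Rapgef1 lie within 0.3 of 0 after scaling.

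The order of the levels shifted below the most abundant members. In Ctrl it was Rasgrp2 (144 ± 25.6 TPM, SD), Rapgef5 (96.2 ± 20.4), Rapgef3 (45.3 ± 3.58), Rapgef4 (39.7 ± 13.0), Rapgef1 (28.5 to 35.8), Rasgrp3 (28.7 ± 6.83), Rapgef2 (14.2 ± 2.52) and Rapgef6 (14.0 ± 2.93). The ranges of neighbours overlapped from Rapgef3 down to Rasgrp3 and between the PDZ-GEF genes. In DPP3_KO, Rapgef4 (7.63 ± 2.40) and Rasgrp3 (5.87 ± 2.89) stood below Rapgef1 (16.9 ± 1.07) with ranges that did not overlap it, and their ranges overlapped those of Rapgef6 (5.83 ± 2.34) and Rapgef2 (5.10 ± 1.46).

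As shares of the summed level, Rapgef4 was smaller and Rapgef3 larger in DPP3_KO. The level of Rapgef3 itself was lower there (mean 27.7 against 45.3 TPM in Ctrl), so its share was a larger part of a smaller sum. Rapgef4 made up 7.92%, 11.5% and 8.86% of the sum in Ctrl and 5.67%, 3.94% and 2.67% in DPP3_KO, without overlap. Rapgef3 made up 13.1%, 9.01% and 11.3% in Ctrl and 13.6%, 13.7% and 16.4% in DPP3_KO, also without overlap (exact permutation p = 0.1 for each, not adjusted over the 8 shares). Rasgrp2 took 33.1% to 37.2% in Ctrl and 33.2%, 50.2% and 52.9% in DPP3_KO, so DPP3_KO replicate 1 had a Ctrl-like share, and the groups overlapped for the other 6 genes, Rasgrp2 and Rasgrp3 among them.

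**Figure D4:**
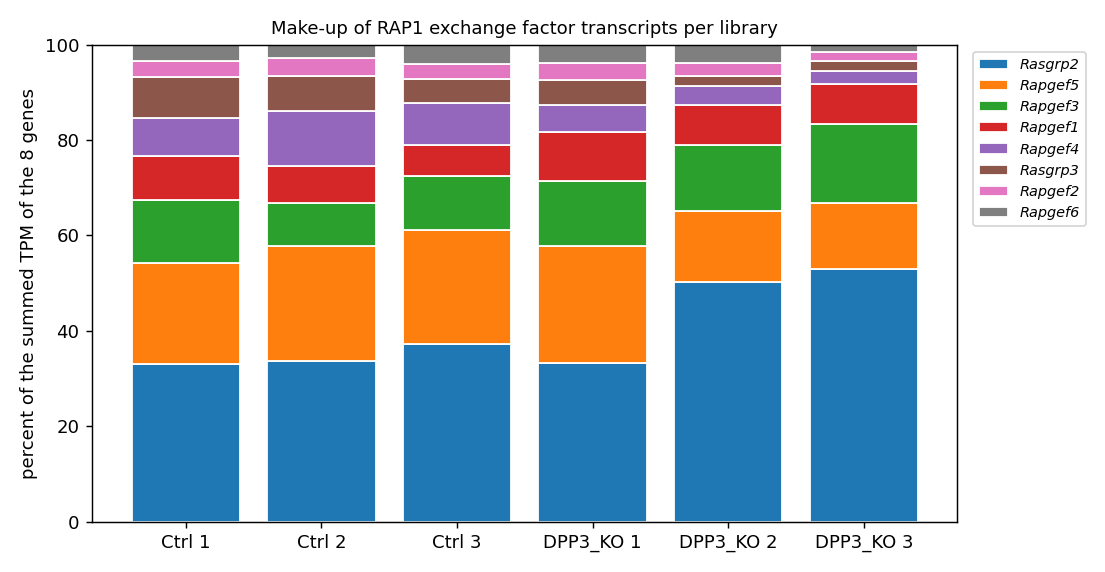
Share of each gene in the summed TPM of the 8 RAP1 exchange factor genes (vertical axis, percent, from 0 to 100), 1 bar per library. Rapgef4 shrinks from 7.92% or more in Ctrl to 5.67% or less in DPP3_KO, and Rasgrp2 exceeds 50% in DPP3_KO replicates 2 and 3.

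Capillary endothelial genes were lower in the same lungs, and several exchange factors are known from endothelium. Of 16 capillary endothelial genes, among them Cdh5, Pecam1 and Tie1, 12 fell with a median change of -1.77 (3 after scaling, median -1.12), and their sum was 3909 to 4747 TPM in Ctrl and 1425 to 2452 in DPP3_KO. None of these 16 was at 0 in all libraries, and Calcrl and Ramp2, named below among the genes that raise cyclic AMP, are among them. After scaling their changes ran from -2.10 (Calcrl) to 0.24 (Egfl7). Rapgef4 (-1.61) and Rasgrp3 (-1.56) lay within that span, so a shift against the mean of the list depends on its mix of genes. Set against the mean log2 level of these genes in the same library, Rapgef5 moved by 0.07 with overlapping groups. Rapgef4 moved by -0.64, also with overlap (exact permutation p = 0.2), and Rasgrp3 by -0.58, from -2.63 ± 0.13 to -3.21 ± 0.29 (SD) without overlap (exact permutation p = 0.1). The other 5 stood higher relative to these genes in DPP3_KO. Rapgef1 moved by 0.70 without overlap (exact permutation p = 0.1), and Rapgef3 by 0.88, Rasgrp2 by 0.83, Rapgef6 by 0.39 and Rapgef2 by 0.25, all with overlap (exact permutation p = 0.2, 0.3, 0.6 and 0.5). Of 10 alveolar type 1 cell genes 8 fell (2 after scaling, median -1.36), and of 11 alveolar macrophage genes 8 fell (median -3.05, and 7 after scaling). As deposited 4 of 8 club cell, 5 of 8 ciliated cell and 6 of 8 heart muscle genes rose, against 1.38% of all genes. After scaling 2, 6 and 6 of these rose, against 1.90% of all genes. Among large-vessel and lymphatic endothelial genes 3 of 8 tested fell, and among fibroblast and pericyte genes 3 of 10, both near the 34.0% called lower over all genes. The part of the capillary, alveolar, macrophage, airway and heart muscle values in the changes of the exchange factors was not tested.

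**Figure D5:**
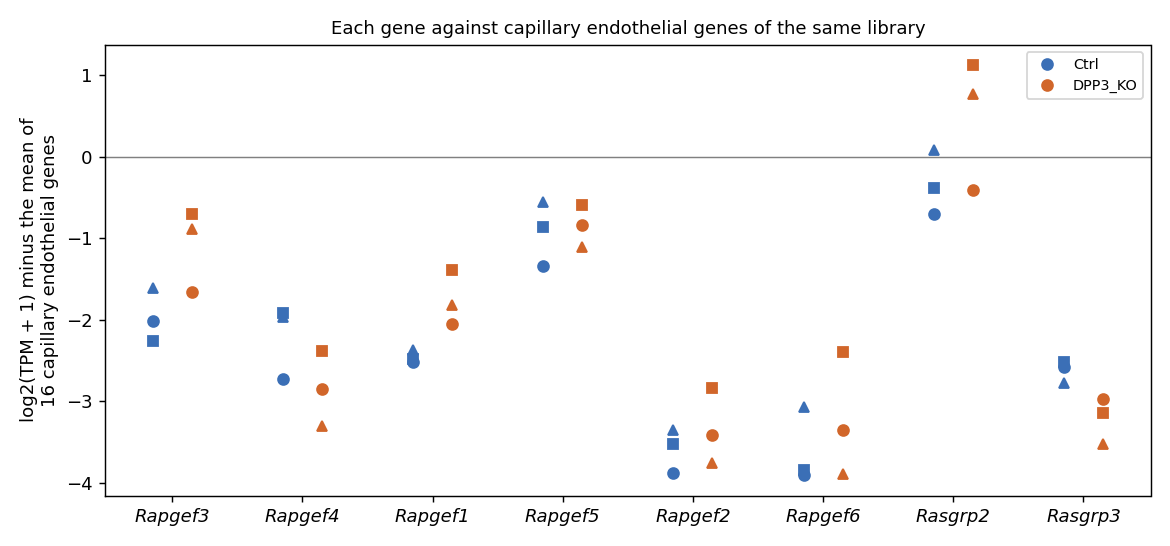
Log2(TPM + 1) of each gene minus the mean of 16 capillary endothelial genes of the same library (vertical axis), Ctrl in blue and DPP3_KO in orange, with circle, square and triangle for replicates 1, 2 and 3. Groups overlap for Rapgef4 and Rapgef5, DPP3_KO lies lower for Rasgrp3, and DPP3_KO lies higher for Rapgef1.

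Rasgrp2 is known from platelets and neutrophils, and its markers varied within groups. The sum of 11 platelet genes was 244, 255 and 398 TPM in Ctrl and 148, 262 and 525 TPM in DPP3_KO, of which 1 of 10 tested, the platelet chemokine gene Ppbp, fell. DPP3_KO replicate 1 was the lowest and DPP3_KO replicate 3 the highest library for this sum. Most of the sum in DPP3_KO replicate 3 was Pf4 (342 TPM, against 86.5, 85.4 and 185 TPM in Ctrl). Ppbp was instead highest in Ctrl replicate 3 (107 TPM, against 52.8 TPM in DPP3_KO replicate 3). By mean log2 level of the platelet genes DPP3_KO replicate 3 (3.99) was highest, close to Ctrl replicate 3 (3.88), and DPP3_KO replicate 1 (2.64) lowest. On the same deposited scale Rasgrp2 was also lowest in DPP3_KO replicate 1 but highest in Ctrl replicate 3, and DPP3_KO replicate 3 lay below every Ctrl library. After median-of-ratios scaling Rasgrp2 was lowest in DPP3_KO replicate 1 (73.4) and highest in DPP3_KO replicate 3 (150). The platelet sum is given as deposited only. Rasgrp2 minus the mean of the platelet genes ranged from 2.74 to 3.67 on the log2 scale over the 6 libraries, and minus the mean of the 10 neutrophil genes from -2.48 to 0.73, with overlapping groups in both. Within the 3 libraries with the lower neutrophil sums Rasgrp2 changed by -1.17, and within the 3 with the higher sums by -0.67, as deposited, each with a single library in one group and no test. The part of platelets and neutrophils in the level of Rasgrp2 was not tested.

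Markers of B cells and neurons, where Rasgrp3 and Rapgef4 are also known, were low. Of 7 B cell genes 2 were tested, their sum was 6.29 to 15.9 TPM in Ctrl and 3.54 to 5.33 in DPP3_KO, and Cd79a, Ms4a1 and Pax5 did not exceed 0.20, 0.06 and 0.15 TPM. Cd79b, a B cell receptor subunit gene and 1 of the 2 tested, stood at 6.95, 3.82 and 4.27 TPM in Ctrl and 3.24, 2.97 and 5.12 TPM in DPP3_KO, with overlapping groups (limma adjusted p = 0.381). Cd22 fell from 8.77, 5.13 and 1.76 TPM in Ctrl to 0.21, 0.96 and 0.09 in DPP3_KO (limma adjusted p = 0.0242). The 6 neuronal genes summed to 32.3 to 46.5 TPM in Ctrl and 7.08 to 13.3 in DPP3_KO, with Snap25, Syt1 and Nefl at most at 0.41, 0.19 and 0.08 TPM. Most of that sum was Stmn2, a tubulin-binding protein gene, which fell by 1.90 on the log2 scale (limma adjusted p = 0.0145).

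Many inputs to these exchange factors were lower as deposited, at rates to be read against the 34.0% over all genes. On the cyclic AMP side, 2 of 11 genes of receptors that raise cyclic AMP, with a receptor partner and the G protein gene Gnas, fell, namely Calcrl (-2.76), the receptor of adrenomedullin and CGRP, and the beta-1 adrenergic receptor gene Adrb1 (-1.38), and the median of the list was -0.39. Ramp2, the partner of Calcrl, stood at -0.53 and did not pass (limma adjusted p = 0.119). Among phosphodiesterases, which break cyclic AMP down, 6 of 13 tested fell, including Pde8b (-1.52), Pde4b (-1.10) and Pde7b (-1.51). Protein kinase A is the other main protein that binds cyclic AMP, and 5 of its 6 subunit genes fell, including Prkar2a (-1.39), Prkacb (-0.98) and Prkar2b (-1.02).

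For Rapgef1, 6 of 11 genes of CRK adaptors and their partners fell, including the adaptor gene Crk (-1.06), the kinase gene Fyn (-1.07) and the docking protein gene Nedd9 (-1.29). For the RasGRP proteins, 13 of 20 genes of phospholipase C, calcium release and diacylglycerol kinases fell. The diacylglycerol kinase genes Dgkz and Dgkd, whose products remove diacylglycerol, fell by 1.17 and 0.94 on the log2 scale, and Plcg1, whose product makes it, fell by 1.27. After median-of-ratios scaling the median of these 20 genes was -0.50. At an unadjusted p under 0.05 (limma) 8 of them were then lower and 2 higher. For the PDZ-GEFs, 5 of 7 junction partner genes fell, including Tjp1 (-1.99), the scaffold gene Magi1 (-1.56) and the beta-catenin gene Ctnnb1 (-0.87). Of all these input genes, Calcrl alone passed after median-of-ratios scaling (-2.10, limma adjusted p = 0.0498).

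The substrates and the opposing enzymes stood as follows. Of 5 RAP GTPase genes 2 fell, Rap2a (-0.84) and Rap2c (-0.99), while Rap1b at -0.87 did not pass (limma adjusted p = 0.104); 2 of 5 is near the 34.0% called lower over all genes. Of 7 genes of GTPase-activating proteins, which return RAP1 to its GDP form, 4 fell, including Sipa1l1 (-1.29), Sipa1l3 (-1.19) and Sipa1l2 (-0.97), and the median of the list, -0.88, was not tested against that of the exchange factors. After scaling limma called 0 genes of either list, with 0 RAP GTPase genes and 2 of the GTPase-activating protein genes at an unadjusted p under 0.05.

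Other exchange factors with the same kind of catalytic domain, which act mainly on RAS or RAL, also stood lower as deposited. Of 18 such genes 16 were tested and 10 fell, to be read against the 34.0% called lower over all genes. Their median was -0.86, or -0.28 after scaling, when limma called 0 and 3 had an unadjusted p under 0.05. The leading members were Rasgef1a (-1.37), Rasgrf2 (-1.86) and Rgl2 (-0.92). Rasgrp4, the myeloid relative of the RasGRP genes, stood at 15.5, 20.2 and 44.5 TPM in Ctrl and 4.56, 30.2 and 17.1 TPM in DPP3_KO, with overlapping groups and the highest level of each group in Ctrl replicate 3 and DPP3_KO replicate 2, the libraries with the highest neutrophil sums.

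The genes most like each member were found by Pearson's r of log2(scaled TPM + 1) over the 6 libraries, among 10544 named genes whose mean reached 5 TPM. The points share their library and the split into groups, so high values are common, and 624 of the 10544 genes exceeded 0.9 for Rapgef4 and 66 for Rapgef3. Closest to Rapgef4 were Manea (0.993), Lims1 (0.992) and Sema6d (0.992), and closest to Rasgrp3 were the growth factor gene Pdgfd (0.998), Ldb2 (0.997) and the endothelial membrane protein gene Clec14a (0.996). Rapgef3 was closest to Lta4h (0.985), Rps29 (0.981) and Cebpz (0.970), and Rasgrp2 to Gng2 (0.988), Rpl10 (0.981) and Ccnt1 (0.979). The leading genes of the other members were Sik3 for Rapgef1 (0.994), Ctdsp2-ps for Rapgef2 (0.9995), Zfp180 for Rapgef5 (0.997) and Rnf4 for Rapgef6 (0.998).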

How the data were processed

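The authors deposited 1 matrix of TPM for 56980 genes with Ensembl identifiers, symbols and lengths; per the submitters' processing notes the tools were HISAT2, StringTie and RSEM (no version stated) and the build was GRCm39. Neither annotation release nor strand setting was stated there, nor how reads from the human cells were treated. Per the labels' protocols, total RNA went into TruSeq libraries. Columns have a common total, so TPM keeps no depth: the depth is unknown and no counting interval or floor is given. Groups and replicate numbers came from the titles; the third Ctrl title gives the line number with another last digit than its column, read as a slip.

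The 15650 genes whose mean reached 1 TPM were tested as log2(TPM + 1), which understates changes of low genes, with limma 3.58.1 in R 4.3.3 (empirical Bayes with trend, two-sided, Benjamini-Hochberg over all tested genes, threshold 0.05). Single values were compared by exact permutation over samples. Alternatives were pseudocounts of 0.1 and 5, other filters, median-of-ratios scaling with and without a lowess length trend (span 0.3), quantile normalization, TPM without Scgb1a1 or without mitochondrial and haemoglobin genes, no trend, sample weights, a replicate block, each sample left out and a threshold of 0.1. The fit was tested on simulated data after median-of-ratios scaling, where it missed every simulated log2 change of -1 and called most of those of -2 and -3. Those changes were given to 200 genes drawn from the more abundant ones, so the rates need not hold for these data or for the members. A gene not called after scaling may still have changed. Members, gene lists and tests were chosen with earlier results of these data known. Named genes were the 8 members, the 3 genes with the smallest p of each list of inputs, GTPases, opposing enzymes and related exchange factors, and the 3 genes most like each member, of which the first is given for 4 members; Ppbp, Cd22, Cd79b, Stmn2, Rasgrp4, the promoter motifs and the marker genes given singly were chosen after their values were seen.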

Additional observations from a re-analysis of the deposited data

How the results depend on the processing

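As deposited, 7 of the 8 exchange factor genes and 5321 of all genes were called lower and 216 higher. Genes called lower numbered 138 under median-of-ratios scaling, 91 once the trend with length was taken out too, 144 after quantile normalization, 423 without Scgb1a1 and 3093 without a filter; exchange factors called lower numbered 1, 1, 1 and 2 under the first 4 of these. With single libraries left out, 18 to 4993 genes were lower, 1 to 146 higher and 0 to 6 exchange factors lower as deposited, and 6 to 169 (15, 55, 23, 169, 6 and 16), 18 to 171 (18, 38, 41, 171, 18 and 49) and 0 to 2 after median-of-ratios scaling, in the order Ctrl 1 to 3 and DPP3_KO 1 to 3. A threshold of 0.1 gave 7533 lower and 353 higher genes and sample quality weights 7189 and 279, each with 8 of 8 exchange factors lower, Rasgrp2 at an adjusted p of 0.0275 (limma) under the weights. The labels do not say whether replicate numbers pair the samples, and the correlations of same-numbered deviations were 0.27, -0.21 and 0.15. The replicate block gave 4734 lower and 212 higher genes and again 7 exchange factors, but not Rapgef6 (limma adjusted p = 0.0514) and with Rasgrp2 (0.0369). With median-of-ratios scaling as well, the block gave 12, 39 and 0, with 4 exchange factors at an unadjusted p under 0.05 (limma).

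With the length trend removed, Rapgef1 and Rapgef3 turned to 0.023 and 0.094. After median-of-ratios scaling Rapgef3 also turned positive without Ctrl replicate 3, DPP3_KO replicate 1 or DPP3_KO replicate 2 (0.043, 0.042 and 0.064), and Rasgrp2 without the first 2 of these (0.036 and 0.17). Rapgef4 minus Rapgef3 stayed between -1.85 and -1.01, and Rasgrp3 minus Rasgrp2 between -2.06 and -0.54, over all alternatives run. Scaling a whole library hardly moves such a difference, and the replicate block leaves it unchanged. The closeness of those settings was therefore set in advance and is no separate check. Rapgef6 minus Rapgef2 reached at most 0.30 with a library left out and turned negative without Ctrl replicate 2 (-0.0032, and -0.0030 scaled), without DPP3_KO replicate 2 (-0.018 and -0.024) and in the 3 libraries with the higher neutrophil sums (-0.13 and -0.13). The change in the mean sum of the 8 genes ranged from -259 to -66.8 TPM. The cause of these shifts was not tested, and the unknown depth limits what can be said of low values.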
